A study of Mus musculus with 18 samples.

Results

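CYC065 was compared with vehicle in unsorted ED1SQ4 cells, the condition in which the whole culture was sequenced without selection by DNA content. The comparison is defined by its labels and takes 6 of the 18 deposited samples, 3 columns for vehicle and 3 for CYC065. The gene lists used below were chosen with earlier results of these data known. ED1SQ4 is a murine lung cancer cell line derived from a tumor of a transgenic mouse that overexpresses cyclin E, so both groups carry that background. The treated cells received 0.5 μM CYC065 for 72 hours and the control cells received vehicle. The other 12 samples come from the same treatments after sorting into diploid (2N) and polyploid (4N) populations, and they are used below only to show where the unsorted culture differed. Total RNA was depleted of ribosomal RNA and sequenced as stranded libraries, and the values are expected counts, the number of read pairs that RSEM assigns to each annotated gene.

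CYC065 (fadraciclib) inhibits CDK2 and, with less potency, CDK9. CDK2 acts with cyclin E and cyclin A to drive entry into and passage through S phase, in part by phosphorylating the retinoblastoma family of pocket proteins and thereby releasing E2F transcription factors, whose targets include the genes of DNA synthesis. CDK9 acts with cyclin T to release paused RNA polymerase II into elongation, and the 7SK small nuclear RNA with HEXIM proteins holds it in an inactive store. CDK2 inhibition is known to lead cancer cells with extra centrosomes into multipolar division.

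The 3 columns of a condition carry a single library number. Over genes with whole counts, they differed by no more than sampling noise, with a chi-square per degree of freedom of 1.02 in vehicle and 0.992 in CYC065 columns. With genes of fractional counts included, it was 1.77 and 1.62 between columns. Over those same kinds of genes it was 479.7 between the summed columns of the treatments, a value that also grows with depth. The columns were counted as 1 library per condition and summed to 58885967 counts for vehicle and 58476088 for CYC065. With 1 library per condition there is no test of the treatment, and no P value is given. A gene is called past the fold when its log2 ratio of CYC065 to vehicle lay beyond 1 in either direction (a 2-fold difference) and it had at least 30 summed counts in one of the libraries. Levels are CPM, counts scaled to the TMM-adjusted library total, and the 95% intervals are exact binomial and cover counting error only, not the spread between cultures.

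Against the label of a lung cancer, most defining markers of lung epithelium were near or at 0. *Nkx2-1*, *Sftpc* and *Scgb1a1* were listed at 0 in all 6 unsorted columns, and 5 epithelial markers including *Epcam*, *Cdh1* and *Krt8* summed to 0.415 CPM with vehicle and 0.771 CPM with CYC065. *Foxa2*, an endodermal transcription factor, was detected at 3.35 and 3.84 CPM. The longer lung lineage list, which includes *Sox9* and *Abca3*, summed to 302 and 452 CPM, and the longer epithelial list, which includes *Tjp1*, to 201 and 225 CPM. Most of the lung lineage sum was *Sox9* alone, with a mean of 269 CPM over both unsorted libraries. Mesenchymal genes were abundant, and *Vim*, *Fn1*, *Cdh2* and *Zeb1* summed to 10323 and 12812 CPM. The 3 fibroblast markers *Pdgfra*, *Dcn* and *Lum* summed to 616 CPM with vehicle and 2051 CPM with CYC065, and their part in the results below was not tested. Of the leukocyte markers, *Ptprc*, *Cd3e* and *Adgre1* were at 0 in the unsorted libraries, whereas *Cd68* had 3.86 and 10.5 CPM. In a bulk culture, fewer cells that hold a transcript and less of it per cell cannot be told apart.

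Regions 150 bases long just upstream of the start site are shown for 5 genes that were lower with CYC065, because they belong to the mitotic, DNA replication and histone lists that the results turn on. In each list they are the members with whole counts and the lowest ratios whose window holds the motif. They come from RefSeq promoters on GRCm38.p6, run 5′ to 3′ in the direction of transcription and end 1 base before the start that RefSeq annotates. The GENCODE gene models of *Ube2c* and *Cdc20* begin inside the windows shown, so the CHR element of *Ube2c* and the last CCAAT box of *Cdc20* lie within the gene by that annotation. Capitals mark a CHR element (TTTGAA or TTTAAA) or a CCAAT box in the mitotic genes *Ube2c* and *Cdc20*, an E2F site (TTCGCGC or TTGGCGC) in the replication helicase genes *Mcm5* and *Mcm6*, and a CCAAT box in the linker histone gene *Hist1h1b*, each read on either strand. In *Mcm6* the capitals hold overlapping E2F sites on opposite strands.
Ube2c, chr2:164769779-164769928, plus strand: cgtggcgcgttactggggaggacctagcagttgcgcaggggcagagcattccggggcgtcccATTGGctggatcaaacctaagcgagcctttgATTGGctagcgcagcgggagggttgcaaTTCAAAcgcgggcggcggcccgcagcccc
Cdc20, chr4:118437344-118437493, minus strand: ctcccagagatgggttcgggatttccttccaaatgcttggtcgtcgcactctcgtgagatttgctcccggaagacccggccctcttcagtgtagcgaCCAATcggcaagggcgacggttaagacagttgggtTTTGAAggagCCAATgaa
Mcm5, chr8:75109359-75109508, plus strand: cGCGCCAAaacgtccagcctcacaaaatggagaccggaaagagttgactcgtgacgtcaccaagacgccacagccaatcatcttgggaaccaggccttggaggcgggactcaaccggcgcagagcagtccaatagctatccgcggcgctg
Mcm6, chr1:128359706-128359855, minus strand: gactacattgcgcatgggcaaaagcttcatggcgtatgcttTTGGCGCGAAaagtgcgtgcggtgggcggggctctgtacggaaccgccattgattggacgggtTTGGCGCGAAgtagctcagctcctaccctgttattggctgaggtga
Hist1h1b, chr13:21780626-21780775, minus strand: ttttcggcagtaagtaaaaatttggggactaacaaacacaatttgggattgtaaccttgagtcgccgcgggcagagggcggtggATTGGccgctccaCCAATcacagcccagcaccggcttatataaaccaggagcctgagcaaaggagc

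Over the 250 bases upstream of the start site, a CHR element was found in 28.1% of all 27025 RefSeq promoters, an E2F site in 3.66% and a CCAAT box in 37.5%. Among genes tested, 9900 of 14058 symbols had a promoter entry, which covers only part of them, and the shares were 20.8%, 6.91% and 41.5%. Among the spindle, kinetochore and cytokinesis genes, 36 of 39 had a promoter entry, and 15 held a CHR element (41.7%), 5 an E2F site (13.9%) and 23 a CCAAT box (63.9%). Of the DNA replication genes, 41 of 50 had an entry, with an E2F site in 8 (19.5%), a CHR element in 8 (19.5%) and a CCAAT box in 25 (61.0%). The histone genes had entries for 57 of 64, with a CCAAT box in 47 (82.5%), a CHR element in 37 (64.9%) and an E2F site in 9 (15.8%). Only 23 of 30 mitotic entry and exit genes had an entry, and of these 12 held a CHR element, 3 an E2F site and 19 a CCAAT box. A match says only that these letters stand in the window.

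Across the unsorted libraries 14076 genes had enough counts, and 1700 were higher with CYC065 (12.1%) and 1899 lower (13.5%). The 95% counting interval lay wholly beyond the fold for 1201 higher (8.53%) and 1353 lower genes (9.61%). The median log2 ratio over all genes was -0.05. Among these genes 2414 (17.1%) had fractional counts in at least 1 of the 6 columns, because RSEM divides read pairs between similar genes, and the values of such genes are uncertain.

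**Figure D1:**
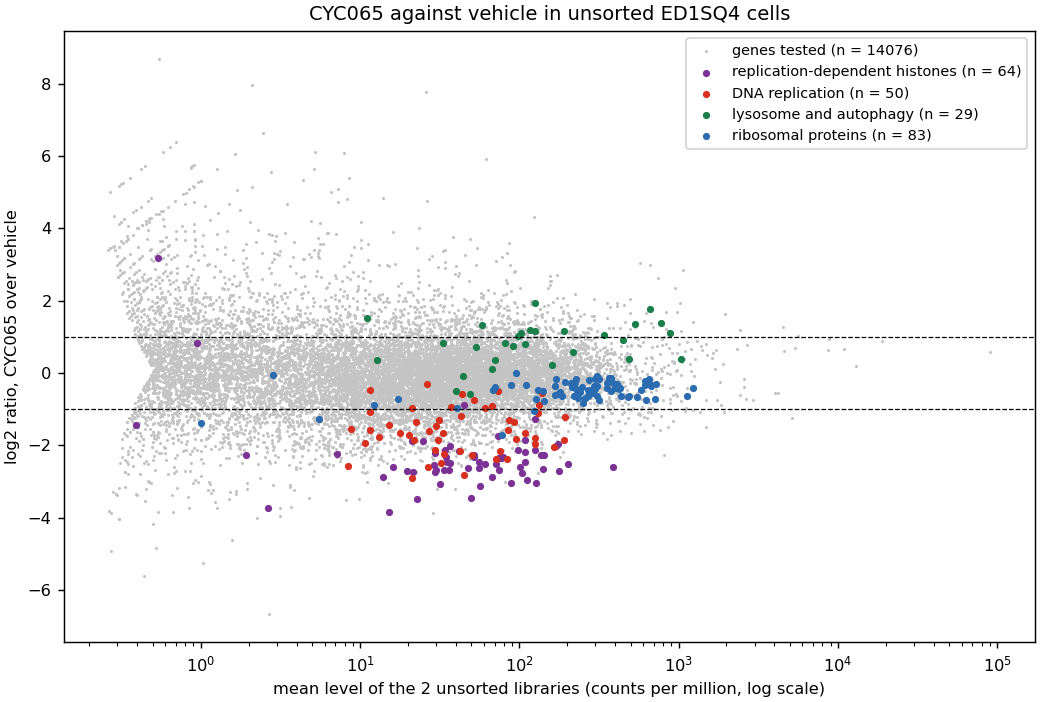
Each point is 1 of the 14076 genes tested, with its mean level in both unsorted libraries on a log axis (CPM) against its log2 ratio of CYC065 to vehicle, and dashed lines mark the fold threshold. Replication-dependent histones and DNA replication genes lie mostly below the lower line, 13 of 29 lysosome and autophagy genes lie above the upper line, and the ribosomal protein genes form a band with a median of -0.45.

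Cyclins and kinases of the G1/S transition were lower or within the fold. Of 13 tested, 6 were lower and none higher, and the list median was -0.75. *Ccna2*, which encodes the S and G2 phase cyclin A2 (mm10, chromosome 3, 36564865 to 36572150), had 5477, 5491 and 5482 counts in the vehicle columns and 1452, 1389 and 1387 in the CYC065 columns. All vehicle columns lay far above all CYC065 columns, so the libraries differed by more than counting noise. The log2 ratio was -1.88 (95% interval -1.93 to -1.83). The D-type cyclin gene *Ccnd1* stood at 554 CPM with vehicle and 156 CPM with CYC065, a log2 ratio of -1.83. Both E-type cyclins, the partners of CDK2, were also lower. *Ccne1* had 682, 674 and 638 counts with vehicle and 252, 254 and 273 with CYC065, or 33.1 and 13.6 CPM, and *Ccne2* went from 23.3 to 7.58 CPM. The kinase genes followed different courses: *Cdk4* was lower, with 245 and 105 CPM, while *Cdk2* itself had a log2 ratio of -0.62 (-0.71 to -0.52), short of the fold. *Ccnd2* (0.46) and *Cdk6* (0.65) were the list members above 0.

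CDK inhibitors lay on both sides of 0. *Cdkn2a*, which encodes both p16INK4a and p19ARF (chromosome 4, 89274471 to 89294653), had 2375, 2492 and 2463 counts with vehicle and 5094, 5048 and 5029 with CYC065, a log2 ratio of 1.13 (1.09 to 1.17). Gene counts do not separate its transcripts. The p21 gene *Cdkn1a* went the other way, with 418, 436 and 485 counts with vehicle and 194, 174 and 179 with CYC065, a log2 ratio of -1.21 (-1.36 to -1.07). The p27 gene *Cdkn1b*, whose product binds cyclin E with CDK2, was at 59.4 CPM with vehicle and 109.9 CPM with CYC065 (0.89), within the fold, as was the p15 gene *Cdkn2b* (0.52). Of the 6 tested, 1 was thus higher and 1 lower.

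Among 13 E2F and pocket protein genes, 6 were lower and none higher. They were the activators *E2f1* and *E2f2*, the repressors *E2f7* and *E2f8* that peak in S and G2 phase, the E2F partner *Tfdp1* and the p107 gene *Rbl1*. *Rbl1* had the lowest ratio, with 1525, 1555 and 1593 counts with vehicle and 284, 317 and 288 with CYC065, a log2 ratio of -2.32. *E2f1* had 50.3 and 18.8 CPM (-1.42, interval -1.52 to -1.32) and *E2f8* 48.7 and 12.8 CPM (-1.93). The other pocket proteins stood on the opposite side, with *Rbl2* (p130) at 32.0 and 58.0 CPM (0.86) and *Rb1* at 0.97, both within the fold. *E2f3* to *E2f6* lay between -0.90 and 0.34.

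DNA replication genes were lower almost throughout. All 50 list members were tested, every one had a log2 ratio below 0, and 39 were lower past the fold, with none higher (list median -1.64). Read against 13.5% of all genes, the lower members were 39 of 50. *Prim1*, the catalytic primase subunit that lays down RNA primers (chromosome 10, 128015168 to 128030037), had 758, 747 and 758 counts with vehicle and 90, 106 and 88 with CYC065, so the vehicle level was 7.54-fold higher. *Tk1*, an enzyme of nucleotide supply, had a log2 ratio of -2.83 (-2.95 to -2.71). The replicative helicase was lower in each of its 6 subunits, from -2.37 for *Mcm5* to -1.11 for *Mcm7*. *Mcm5* had 2395, 2411 and 2407 counts with vehicle and 444, 441 and 438 with CYC065, and *Mcm6* had 199 and 50.5 CPM. Their promoters are printed above with the E2F sites in capitals. The 11 members within the fold included *Cdc7* (-0.32), which encodes the kinase that starts origin firing, *Dut* (-0.50) and the licensing factor *Cdt1* (-0.58).

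Homologous recombination and checkpoint genes showed the same, with 19 of 20 lower past the fold and a median of -1.72. *Brca2*, which acts in strand exchange at resected ends, had 1223, 1195 and 1271 counts with vehicle and 267, 273 and 259 with CYC065, a log2 ratio of -2.13 (-2.24 to -2.02). The Fanconi anemia core gene *Fanca* was at 31.8 and 6.11 CPM (-2.38). The apical checkpoint kinase gene *Atm* stood at 83.8 and 21.1 CPM, a log2 ratio of -1.99. *Chek2* was the member within the fold, at -0.75.

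Mitotic genes were lower as well. Of 30 genes of mitotic entry and exit, 23 were lower and none higher (median -1.46), and of 39 spindle, kinetochore and cytokinesis genes 36 were lower and none higher (median -1.46). *Ube2c*, a ubiquitin-conjugating enzyme of the anaphase-promoting complex (chromosome 2, 164769898 to 164778822), had 1992, 1999 and 1970 counts with vehicle and 414, 386 and 420 with CYC065, a log2 ratio of -2.21 (-2.30 to -2.12). *Cdc20*, its activator, had 2084, 2131 and 2171 counts with vehicle and 545, 543 and 546 with CYC065 (-1.89). Their promoters carry the CHR elements shown above. The mitotic kinase gene *Cdk1* was less reduced, at 113 and 44.7 CPM (-1.34, interval -1.40 to -1.27). The B-type cyclins differed from each other: *Ccnb1* was at 129 and 42.8 CPM (-1.59) with fractional counts, while *Ccnb2* (-0.95) and the securin gene *Pttg1* (-0.80) were within the fold.

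Of the spindle genes, *Hmmr*, a microtubule-associated receptor for hyaluronan, had the lowest ratio, with 3050, 3086 and 3192 counts with vehicle and 684, 644 and 644 with CYC065 (-2.16). The kinetochore motor gene *Cenpe* was at 220.2 and 56.3 CPM (-1.97). *Cenpk* (-0.90), *Smc4* (-0.90) and *Ckap5* (-0.84) were the 3 members within the fold. Centriole genes were less affected, with 4 of 15 lower and a list median of -0.52. These 4 were *Sass6* (-1.59), *Plk4* (-1.55), *Pcnt* (-1.34) and *Stil* (-1.22). *Plk4*, *Sass6* and *Stil* encode the kinase, the cartwheel protein and the scaffold that begin centriole duplication, and *Pcnt* encodes a scaffold of the pericentriolar material. *Plk4* had fractional counts. Tubulins, the subunits of the spindle fibers, were lower in 10 of 12 genes. *Tubb3* had 573, 501 and 528 counts with vehicle and 59, 69 and 56 with CYC065 (-3.04, interval -3.27 to -2.82), and the abundant *Tuba1b* was at 1345 and 281 CPM with fractional counts. Only 5 of the 12 tubulin genes had whole counts.

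Replication-dependent histones, which are made in S phase from transcripts without a poly(A) tail and can be measured here because the libraries were built from total RNA, had the lowest median of the 43 lists, -2.47. Of 64 tested, 61 were lower and 1 higher. Summed over the list they took 7537 CPM with vehicle and 1444 CPM with CYC065. Because the copies are nearly identical, 59 of the 64 had fractional counts, so values of single genes are uncertain. Of the 5 with whole counts, 4 were lower. *Hist1h1b* (H1.5, chromosome 13, 21779883 to 21780625) had 3161, 3267 and 3172 counts with vehicle and 372, 353 and 383 with CYC065, a log2 ratio of -3.04 (-3.13 to -2.95). *Hist2h4* had 4571, 4542 and 4621 counts with vehicle and 517, 538 and 527 with CYC065, also -3.04. *Hist1h1a* was at -2.36 and *Hist4h4* at -1.87. The fifth, *Hist2h2be*, had 15, 14 and 12 counts with vehicle and 18, 32 and 19 with CYC065, so the columns nearly met and the level was low (0.83, interval 0.25 to 1.42). The higher member was *Hist2h3c1*, with fractional counts of 0 to 38.9 in single columns. The processing factor gene *Slbp*, which binds histone stem-loops, was at -0.75.

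Histone variants, which are expressed outside S phase too, were lower in 4 of 10 genes. *H2afx* was at -2.06 and *Cenpa*, the centromeric variant, at -1.26, while the linker histone variant *H1f0* was at 0.02. In the nuclear envelope and senescence list 7 of 12 were lower and 1 higher. *Lmnb1*, a nuclear lamina gene whose loss is used as a senescence marker, had 2809, 2917 and 2947 counts with vehicle and 847, 806 and 847 with CYC065 (-1.72, interval -1.78 to -1.65). *Lmnb2* (-1.28), *Hmga2* (-1.35) and *Hmgb2* (-1.58) were also lower. This list shares *Cdkn1a*, *Cdkn2a* and *Cdkn2b* with the CDK inhibitors described above.

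**Figure D2:**
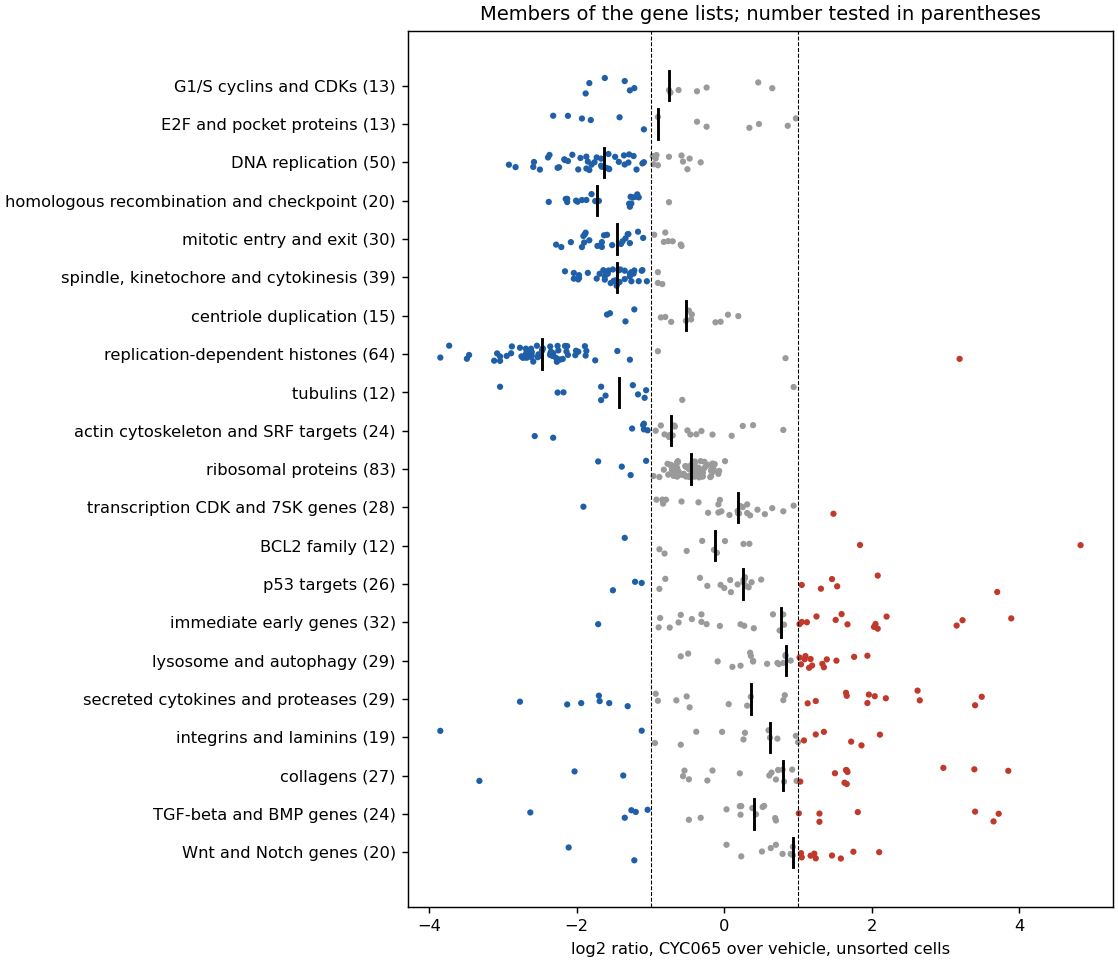
Each point is the log2 ratio of CYC065 to vehicle of 1 tested gene in unsorted cells, placed by gene list, with blue for lower past the fold, red for higher, gray for within it, and a bar at the list median. Most replication, recombination, mitotic, spindle and histone genes lie to the left of the dashed line at -1, while lysosomal, collagen and immediate early genes reach well beyond 1.

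Genes of the CDK9 machinery stayed mostly within the fold. Of 28 transcription CDK and 7SK genes, 1 was higher and 1 lower, against 12.1% and 13.5% of all genes. *Cdk9* had 1125, 1092 and 1127 counts with vehicle and 1230, 1210 and 1178 with CYC065, a log2 ratio of 0.19 (0.12 to 0.26). The lower gene was *Nelfe*, a subunit of the negative elongation factor that holds paused polymerase, with 683, 656 and 704 counts with vehicle and 180, 155 and 180 with CYC065 (-1.91). *Nelfa* (-0.35) and *Nelfb* (0.19), other subunits, were within the fold. The higher gene was *Hexim2*, a 7SK-bound inhibitor of CDK9, with 2.02 and 5.64 CPM (1.48, interval 1.17 to 1.79), and the more abundant *Hexim1* was at 0.45. *Rn7sk* itself stood at 6019 CPM with vehicle and 11511 CPM with CYC065 (0.94), with fractional counts. *Polr2a*, the large subunit of the polymerase, was at 468 and 269.8 CPM (-0.79).

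Short nuclear RNAs were often higher. Among 26 small nuclear RNA genes 16 were higher (61.5%) and none lower, and among 38 small nucleolar RNA genes 22 were higher (57.9%) and none lower. The share of all counts on *Rn7s1* and *Rn7s2*, the RNA of the signal recognition particle, was 2.23% with vehicle and 3.70% with CYC065, and that on *Gm26917* and *Gm42418*, which overlap ribosomal RNA repeats, was 8.74% and 12%. The part of ribosomal RNA depletion in these shares was not tested. Ratios also differed with the length of the gene on the chromosome. Protein-coding genes in the shortest tertile by span, up to 14.1 kb, had a median log2 ratio of -0.33 and 21.1% of them were lower, whereas the longest tertile, from 40.2 kb, had a median of 0.11 with 7.69% lower. SR splicing factors and CLK kinases, which set exon choice, were lower in 7 of 18 genes and higher in none. *Srsf1* had 7417, 7468 and 7531 counts with vehicle and 2220, 2155 and 2244 with CYC065 (-1.68), while the kinase genes *Clk1* (0.70) and *Srpk2* (0.97) stood above 0 within the fold.

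Apoptosis regulators of the BCL2 family were mostly within the fold, apart from a pair of BH3-only activators of cell death. *Bmf* (chromosome 2, 118528757 to 118549687) had 18, 18 and 21 counts with vehicle and 518, 511 and 509 with CYC065, which is 28.5-fold higher, a log2 ratio of 4.83 (4.45 to 5.24). *Bcl2l11*, which encodes BIM, had 294, 298 and 288 counts with vehicle and 1026, 1009 and 953 with CYC065 (1.84, interval 1.73 to 1.95). Of 12 tested, these were the 2 higher ones, and the multidomain killer gene *Bok* was lower (-1.35). Over all genes, 12.1% were higher and 13.5% lower. The short-lived survival gene *Mcl1* had 3866, 3770 and 3865 counts with vehicle and 3674, 3590 and 3675 with CYC065, and its log2 ratio of 0.01 had an interval of -0.03 to 0.04. *Bax* (-0.88), *Bak1* (-0.81) and *Bcl2l1* (-0.14) were within the fold.

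Targets of p53 were divided. Of 26 tested, 6 were higher and 3 lower, with a median of 0.26, against 12.1% higher and 13.5% lower over all genes. *Trp53inp1*, which encodes a stress-induced nuclear protein, had 141, 142 and 138 counts with vehicle and 1733, 1718 and 1726 with CYC065, 13.0-fold higher. The antiproliferative gene *Btg2* was at 4.68 and 19.7 CPM (2.08), and *Sesn1* (1.46), *Fas* (1.53) and *Eda2r* (1.31) were higher as well. *Ddb2*, a damage recognition gene, was at 1.05 and fell within the fold under library size scaling. The canonical target *Mdm2* had 777, 774 and 755 counts with vehicle and 783, 757 and 778 with CYC065 (0.09). *Cdkn1a*, *Aen* (-1.51) and *Ckap2* (-1.12) were the 3 lower members.

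Immediate early genes, which respond to growth factor and stress signals within minutes and encode transcription factors and feedback phosphatases, were higher in 14 of 32 and lower in 1. *Fos* had 36, 44 and 42 counts with vehicle and 586, 583 and 539 with CYC065, 14.8-fold higher (log2 ratio 3.89, interval 3.62 to 4.16). The orphan receptor gene *Nr4a2* had 94, 108 and 128 counts with vehicle and 965, 1034 and 937 with CYC065 (3.23). *Egr1* was at 108 and 307 CPM (1.51) and the phosphatase gene *Dusp1* at 20.7 and 94.8 CPM, 4.59-fold higher. The AP-1 member *Fosl1* was lower, with 2688, 2756 and 2782 counts with vehicle and 817, 778 and 792 with CYC065 (-1.71), and *Jun* (0.22), *Jund* (-0.06) and *Myc* (-0.24) were within the fold. Of 15 ERK feedback genes, *Spry1* was higher, with 7.16 and 54.6 CPM (2.93), and *Ccnd1* and *Fosl1* were lower. Shares over all genes were 12.1% higher and 13.5% lower, which the ERK feedback list did not exceed. *Dusp6* (0.45), *Spry2* (0.38) and *Spry4* (0.19) were within the fold.

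Lysosome and autophagy genes were higher in 13 of 29 and lower in none, with a median of 0.83 against -0.05 for all genes. *Hexa*, which degrades gangliosides (chromosome 9, 59539540 to 59565109), had 1011, 1032 and 1064 counts with vehicle and 3751, 3852 and 3694 with CYC065, a log2 ratio of 1.94 (1.88 to 2.00). The membrane protein gene *Lamp2* had 298 and 762 CPM (1.35). *Ctsd*, the aspartic protease cathepsin D, was at 302 and 1026 CPM with fractional counts (1.76). *Map1lc3b* (1.19) and *Gabarapl1* (1.15), which coat autophagosomes, were higher, whereas the transcriptional regulators of the list, *Tfeb* (0.35) and *Tfe3* (-0.09), were within the fold. *Npc2* (1.04) and *Ulk1* (1.02) left the fold call under other scalings.

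Matrix genes were among those that gained most reads. Collagens were higher in 10 of 27 and lower in 3 (median 0.79), and summed to 12084 CPM with vehicle and 21394 CPM with CYC065. *Col4a1*, a basement membrane collagen (chromosome 8, 11198423 to 11312826), had 7957, 7964 and 7995 counts with vehicle and 24009, 23931 and 24131 with CYC065 (1.67, interval 1.65 to 1.69). Its partner *Col4a2* was at 1.65 and the fibrillar *Col3a1* at 1.63, the latter with fractional counts. *Col1a1* (0.61) and *Col1a2* (0.70), the most abundant, were within the fold. The lower ones were *Col17a1* (-3.32), *Col5a3* (-2.03) and *Col18a1* (-1.37). Of 19 integrin and laminin genes, 7 were higher and 2 lower. Shares over all genes were 12.1% higher and 13.5% lower, so lower members were no more frequent in these lists than among all genes. *Itgb8*, a subunit of the integrin that activates latent TGF-beta, had 429, 441 and 429 counts with vehicle and 1731, 1816 and 1748 with CYC065 (2.11), and *Lama4* was at 62.0 and 225 CPM (1.86). *Lama3* (-3.85) and *Itga3* (-1.12), epithelial matrix and receptor genes, were lower.

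Secreted cytokines, growth factor binding proteins and proteases were higher in 12 of 29 and lower in 7. The gelatinase gene *Mmp2* (chromosome 8, 92827291 to 92853420) had 4094, 4191 and 4336 counts with vehicle and 24585, 24485 and 24355 with CYC065, 6.15-fold higher. *Mmp14*, which activates its product at the membrane, was at 238 and 754 CPM (1.66), while *Timp1*, a metalloprotease inhibitor, was at 128 and 29.2 CPM (-2.13, interval -2.21 to -2.05). The chemokine gene *Cxcl12* had 3759, 3927 and 3996 counts with vehicle and 15098, 15098 and 15264 with CYC065 (2.04), and *Cxcl1* (2.19) was higher too. *Ccl2* (-1.94) and *Ccl7* (-1.31) were lower. Among genes of plasminogen activation, *Plaur* (-1.69) was lower, and *Plat* (0.06) and *Plau* (0.36) were within the fold.

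Of 24 TGF-beta and BMP genes, 7 were higher and 5 lower. The ligands stood out. *Tgfb2* had 116, 122 and 120 counts with vehicle and 1245, 1163 and 1158 with CYC065, 10.5-fold higher, and *Bmp4* (3.72) and *Inhbb* (3.65) were higher from low levels. *Tgfb1* (0.43) was within the fold. *Tgfbr2* (1.29) and *Tgfbr3* (1.81) were the higher receptors. *Id1*, a target of BMP signaling, had 900, 938 and 844 counts with vehicle and 145, 131 and 135 with CYC065 (-2.63, interval -2.78 to -2.48), and *Id2* (-1.26) and the feedback inhibitor *Smad7* (-1.20) were also lower. Of 20 Wnt and Notch genes, 9 were higher and 2 lower, against 12.1% and 13.5% of all genes. The Notch ligand gene *Jag1* had 456, 432 and 495 counts with vehicle and 1510, 1493 and 1411 with CYC065 (1.75), and *Notch3* (1.58), *Wnt5a* (1.22) and *Lrp6* (1.17) were higher. *Lef1* (-2.11) and *Wnt10a* (-1.22) were the lower ones.

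Mesenchymal genes were higher in 3 of 15 and lower in none. *Pdgfrb*, a receptor of mesenchymal cells, had 3904, 3917 and 3878 counts with vehicle and 13447, 13492 and 13656 with CYC065 (1.87). *Vim*, an intermediate filament gene, was at 3304 and 2016 CPM (-0.71), and *Zeb1* (0.54), *Snai1* (0.16) and *Twist1* (0.17), transcription factors of the mesenchymal state, were within the fold. The actin cytoskeleton and SRF target list had 7 of 24 lower and none higher. *Tpm2*, a tropomyosin gene, had a log2 ratio of -2.57 and *Srf* of -1.09, and *Actb*, with fractional counts, was at 7238 and 3036 CPM (-1.25).

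**Figure D3:**
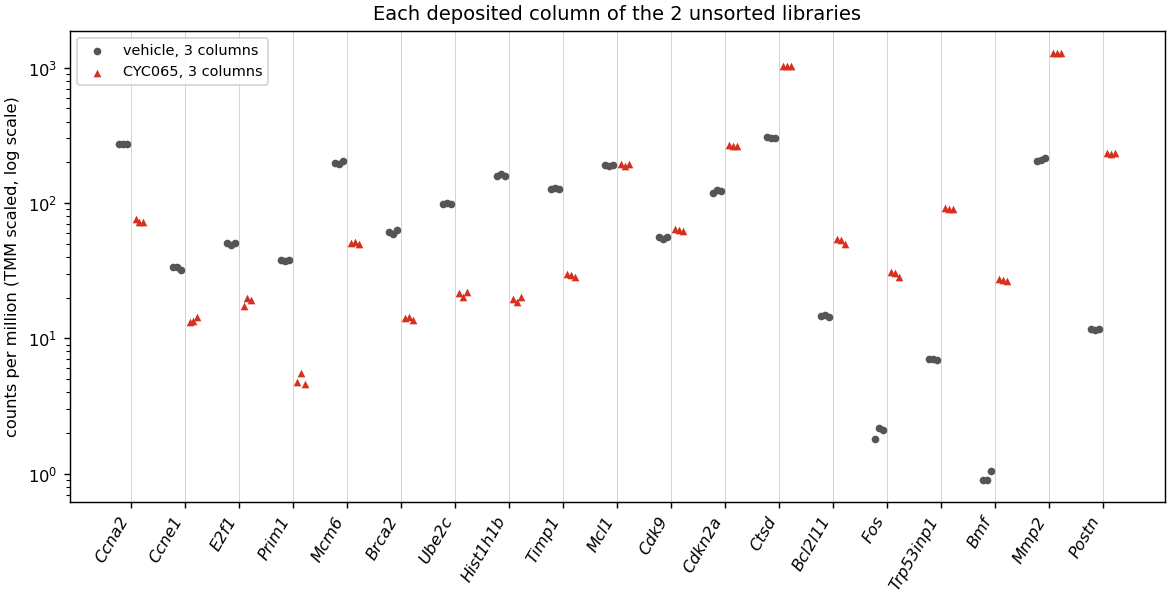
Points are the 3 deposited columns of each unsorted library for 19 genes named in the text, in CPM on a log axis, with gray circles for vehicle and red triangles for CYC065. Columns of a library lie almost on top of each other, *Mcl1* and *Cdk9* stand at like levels in both libraries, and the other genes are separated by treatment.

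Across all genes, the top 10 ratios, taken over genes with whole counts and 300 or more counts in either library, belonged to *Aspn*, *Mroh2a*, *Mgp*, *Tmem132b*, *Wfdc3*, *Angptl7*, *Dio2*, *Bmf*, *Btn1a1* and *Lrrc32*. Several encode secreted or matrix proteins. *Aspn*, a small leucine-rich matrix proteoglycan, had 3, 2 and 4 counts with vehicle and 190, 200 and 199 with CYC065 (6.11, interval 5.18 to 7.25). *Mgp*, the matrix Gla protein that inhibits calcification (chromosome 6, 136872435 to 136875823), was the most abundant of them, with 37, 43 and 41 counts with vehicle and 2287, 2301 and 2333 with CYC065, 60.4-fold higher. *Dio2*, the deiodinase that activates thyroid hormone, was at 0.398 and 12.7 CPM (4.99). *Lrrc32*, which tethers latent TGF-beta to the cell surface, had 33, 34 and 48 counts with vehicle and 952, 965 and 996 with CYC065 (4.74). All 10 had ratios above 1 in 2N cells, from 2.18 to 7.90, and 9 of 10 in 4N cells, where *Btn1a1* was at -0.17.

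The 10 lowest were *Wincr1*, *Dlk2*, *Cdkn3*, *Notch4*, *Ptgs2os2*, *Pkp1*, *Lgr6*, *Eef2kmt*, *Myb* and *Tubb3*. *Wincr1*, a long noncoding RNA, had 122, 109 and 127 counts with vehicle and 8, 4 and 10 with CYC065, 15.4-fold lower. *Cdkn3*, a phosphatase that acts on cyclin-dependent kinases, had 284, 305 and 315 counts with vehicle and 28, 21 and 26 with CYC065 (-3.51, interval -3.87 to -3.17). *Notch4* (-3.49) and the Delta-like gene *Dlk2* (-3.70) are not members of the Wnt and Notch list above. *Pkp1*, a desmosomal plaque gene, had 1060, 1093 and 1151 counts with vehicle and 114, 123 and 102 with CYC065 (-3.21), against -1.10 in 2N and -1.05 in 4N cells. *Ptgs2os2* is named as an antisense gene, and whether the counting used strand is not given in the sources used here.

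By reads gained rather than by ratio, the 10 leading genes with whole counts were *Fn1*, *Malat1*, *Col1a2*, *Col1a1*, *Lrp1*, *Thbs1*, *Igfbp4*, *Mmp2*, *Lox* and *Thbs2*, of which all but the nuclear RNA *Malat1* and the endocytic receptor *Lrp1* encode secreted proteins. *Fn1*, fibronectin, had 136047, 136167 and 136303 counts with vehicle and 199704, 200522 and 199889 with CYC065, a log2 ratio of only 0.63. Per kilobase of exon its level was 579.7 and 899.5 CPM, the highest of these 10 with vehicle and the second to *Malat1* (382 and 916 CPM per kilobase) with CYC065. *Thbs1*, which encodes the matrix glycoprotein thrombospondin 1, had 5273, 5152 and 5239 counts with vehicle and 35285, 35210 and 35669 with CYC065, 7.16-fold higher. *Thbs2* was 7.91-fold and *Igfbp4*, which binds insulin-like growth factors, 3.82-fold higher. The 10 genes with the largest loss of reads, again among those with whole counts, were *Ahnak*, *Flna*, *Lgals1*, *Vim*, *Tubb5*, *Kpnb1*, *Ncl*, *Arhgdia*, *Lmna* and *Msn*. *Lgals1*, galectin 1, had 43910, 44081 and 44481 counts with vehicle and 14701, 14876 and 14813 with CYC065 (-1.50, interval -1.51 to -1.48). *Kpnb1*, the nuclear import receptor importin beta, was at 1150 and 387 CPM (-1.57), and *Ncl*, nucleolin, at 916 and 297 CPM (-1.62).

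The sorted populations were separate libraries, so the 3 comparisons share no sample. In 2N cells 14.4% of genes were higher and 14.3% lower with CYC065, and in 4N cells 13.7% and 12.2%. Of the 1700 genes higher in unsorted cells, 1067 were also higher in 2N cells (62.8% of the unsorted and 52.6% of the 2N genes) and 978 in 4N cells (57.5% and 50.3%). Of the 1899 lower genes, 1304 were lower in 2N cells (68.7% and 64.9%) and 1101 in 4N cells (58.0% and 63.9%). The genes past the fold in the same direction in all 3 comparisons numbered 859 higher and 992 lower.

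The DNA replication, recombination, mitotic and spindle lists had lower medians in unsorted than in 4N cells, with 2N cells between. For the spindle list the medians were -1.46 in unsorted, -1.40 in 2N and -0.74 in 4N cells, and for homologous recombination -1.72, -1.59 and -0.93. The G1/S list had its lowest median in 2N cells (-0.75, -0.99 and -0.79), and the E2F and pocket protein list had similar medians of -0.90, -0.95 and -0.88. Histones stood further apart, at -2.47, -1.41 and -0.78, and 58 of 64 had an interval below both sorted ratios, against 14.6% of all genes. With 1 scaling over all 6 libraries, the histones summed to 7930 CPM in unsorted vehicle, 2263 CPM in 2N vehicle and 1261 CPM in 4N vehicle cells, and to 1498, 788 and 656 CPM after CYC065. The vehicle level was thus the one that differed most between the unsorted and sorted cultures. Integrins and laminins had a median of 0.62 in unsorted cells and medians near 0 in sorted ones (-0.20 and -0.22), and Wnt and Notch genes had medians of 0.93, 0.31 and 0.12. An interval above both sorted ratios was found for 11 of 19 and 13 of 20 of these genes, against 21.1% of all genes. Higher past the fold were 7 integrin and laminin genes in unsorted, 6 in 2N and 4 in 4N cells. With 1 scaling, integrins and laminins summed to 2991, 4639 and 4470 CPM in unsorted, 2N and 4N vehicle cells. After CYC065 they summed to 4281, 3483 and 3254 CPM.

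**Figure D4:**
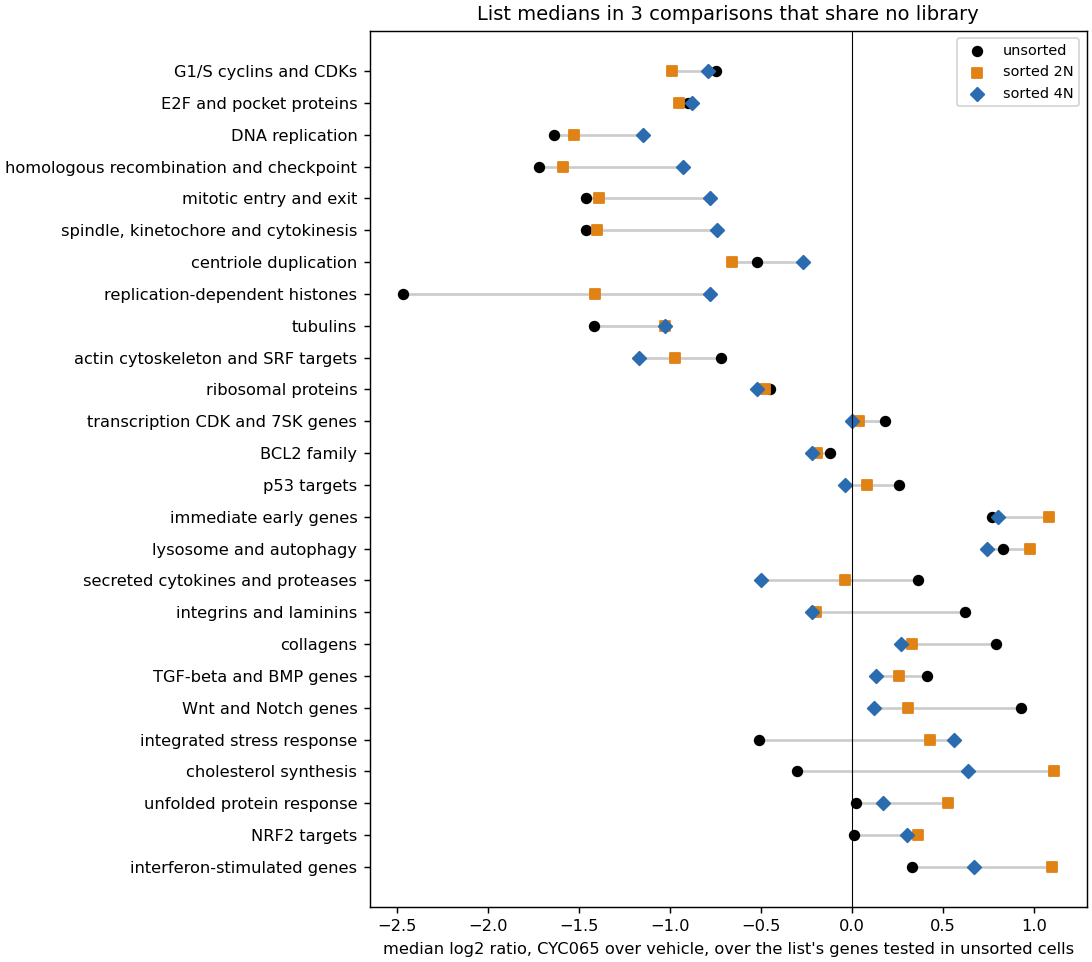
Points are the medians of the log2 ratio of CYC065 to vehicle over each list's genes tested in unsorted cells, for unsorted (black circles), sorted 2N (orange squares) and sorted 4N cells (blue diamonds). Histones are lowest in unsorted cells, and the integrated stress response and cholesterol synthesis lists lie below 0 in unsorted and above 0 in both sorted populations.

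The integrated stress response and cholesterol synthesis lists differed in sign. Genes of the integrated stress response, which ATF4 induces when amino acids are short, had a median of -0.51 in unsorted cells and of 0.43 and 0.56 in 2N and 4N cells. Of 22 tested, 5 were lower and 1, the phosphatase subunit gene *Ppp1r15a* (1.10), higher in unsorted cells, against 13.5% and 12.1% of all genes. An interval below both sorted ratios was found for 20, against 14.6% of all genes. *Slc7a11*, the cystine transporter (chromosome 3, 49892526 to 50443614), had 1025, 1006 and 1065 counts with vehicle and 410, 419 and 450 with CYC065, a log2 ratio of -1.20 (-1.29 to -1.10), against 3.05 in 2N and 2.60 in 4N cells. *Trib3*, a pseudokinase that restrains ATF4, was at -1.16 (-1.26 to -1.07) against 1.82 and 1.92. *Chac1*, which degrades glutathione, was at -1.91 against 1.14 and 0.73. *Atf4* itself was lower in each comparison (-0.84, -1.05 and -1.03).

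Vehicle levels moved with these differences. With 1 scaling over all 6 libraries, *Slc7a11* stood at 54.0, 3.68 and 4.45 CPM in unsorted, 2N and 4N vehicle cells and at 23.2, 31.2 and 27.6 CPM after CYC065. *Trib3* stood at 55.2, 11.9 and 11.0 CPM in vehicle and at 24.3, 42.9 and 42.8 CPM in CYC065 cells. The treated libraries were thus nearer to each other than the vehicle libraries were. The sorted cells were stained for 1 hour and passed through a sorter and the unsorted libraries carry no such label, so handling and selection by DNA content cannot be told apart.

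Cholesterol synthesis genes had a median of -0.30 in unsorted cells, 1.11 in 2N and 0.64 in 4N cells, and 18 of 23 had an interval below both sorted ratios, against 14.6% of all genes. *Hmgcs1*, which begins the mevalonate pathway, had 4160, 4142 and 4248 counts with vehicle and 3123, 2993 and 3086 with CYC065 (-0.37, interval -0.41 to -0.33). With 1 scaling over all 6 libraries it stood at 32.0 and 147 CPM in 2N and at 43.7 and 113 CPM in 4N cells. *Mvk*, mevalonate kinase, was lower in unsorted cells (-1.87) and had the same sign in 2N (-0.85) and 4N cells (-1.04). With 1 scaling the list summed to 3030 CPM in unsorted vehicle cells, against 916 CPM in 2N and 1151 CPM in 4N vehicle cells, and to 2650, 1956 and 1709 CPM after CYC065. Unfolded protein response genes were within the fold in all 18 cases (median 0.02), with *Hspa5* at -0.13 and *Herpud1* at 0.52.

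Single genes with ratios far above those of both sorted populations were *Postn*, *Btn1a1*, *Txnip*, *Cpa4* and *Acpp*. *Postn*, the matrix protein periostin, had 235, 233 and 237 counts with vehicle and 4487, 4408 and 4462 with CYC065, a log2 ratio of 4.32 (interval 4.21 to 4.43), against 0.56 and 0.27. On the same scaling it stood at 12.3 CPM in unsorted vehicle cells and 52.2 and 26.5 CPM in sorted ones, and after CYC065 at 243, 78.6 and 32.6 CPM. *Txnip*, a thioredoxin-binding protein that responds to glucose, had 610, 561 and 512 counts with vehicle and 1800, 1773 and 1841 with CYC065 (1.76), against -0.85 and -1.10. With 1 scaling over all 6 libraries, *Txnip* stood at 29.4, 197 and 177 CPM in unsorted, 2N and 4N vehicle cells. After CYC065 it stood at 98.4, 112 and 83.9 CPM. Those farthest below were *Slc7a11*, *Lrrc17*, *Trib3*, *Ddit4* and *Chac1*. *Ddit4*, an inhibitor of mTORC1, was at 0.95 in unsorted cells against 3.64 and 3.61. Its vehicle levels on that scaling were 53.6, 4.59 and 3.65 CPM, and those after CYC065 were 102, 58.5 and 45.5 CPM.

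**Figure D5:**
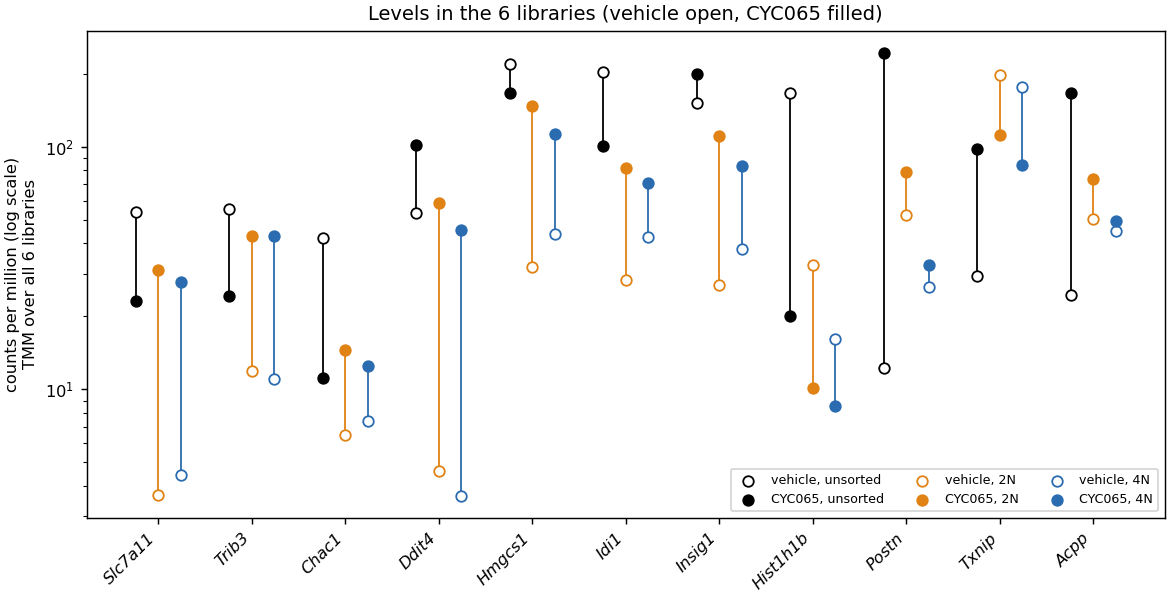
Levels of 11 genes in CPM on a log axis, with 1 scaling over all 6 libraries, joining vehicle (open) to CYC065 (filled) within unsorted (black), 2N (orange) and 4N cells (blue). *Slc7a11*, *Trib3* and *Chac1* run downward in unsorted and upward in sorted cells, and *Postn* runs from 12.3 to 243 CPM in unsorted cells.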

How the data were processed

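RNA-Seq values of 6 unsorted samples of ED1SQ4 cells were analysed, with 12 sorted samples for comparison. Adapters had been removed by the authors using Cutadapt 1.18. STAR 2.7.0f served as their aligner on the mouse build mm10, and GENCODE M21 genes were quantified with RSEM. The submitters' processing notes give RSEM 1.3.1 and bcl2fastq 2.17, and the paper's methods name later versions. The deposited values are RSEM expected counts, not normalized, for 55450 genes. The 3 columns of a condition were summed, and the sums were rounded for the scaling factors and the intervals. Ratios and levels used the sums unrounded, and fits on the 3 columns used each column rounded.

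TMM factors (edgeR 4.0.16 in R 4.3.3) were computed over the 2 unsorted libraries and, separately, over the 4 sorted ones. Log2 ratios, exact 95% binomial intervals and calls were computed with SciPy 1.17.1, NumPy 2.4.6 and pandas 2.3.3 under Python 3.11.15, and the calculation was tested on simulated data. Column totals lay between 19489691 and 19636335 in unsorted cells. Genes were named if they had the 10 highest or lowest log2 ratios, or the 10 largest gains or losses in CPM, among genes with whole counts, at least 300 counts in the higher library and no predicted-gene symbol. The 5 in each direction farthest beyond both sorted ratios were also named, as were leading and defining members of the 43 gene lists. Levels per length use exon lengths of GENCODE M21. Lists, named genes and comparisons were chosen with earlier results of these data known. Alternatives were other scalings and filters, edgeR and DESeq2 1.42.0 on the 3 columns, an assumed biological coefficient of variation of 0.2, a replicate block and leaving out each replicate. Some genes of the lists are counted but not reported by name here. One scaling over all 6 libraries was added after seeing the data.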

Additional observations from a re-analysis of the deposited data

Results flagged for a closer look

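Past the fold in all 3 comparisons, 8 genes were lower with CYC065 in unsorted cells and higher in both sorted populations. For 7 of them the columns of the treatments did not overlap in any comparison. Columns of 1 library differ by counting noise only, so most genes selected by fold would show this in any case. The other was the predicted gene *Gm13502*, with fractional counts of 32.1 to 83.6 with vehicle and 11.4 to 31.1 with CYC065, and a log2 ratio of -1.61 in unsorted cells. The difference between unsorted and sorted cells was not tested, since each condition is 1 library. *Slc7a11*, the cystine transporter, had a log2 ratio of -1.20 in the unsorted culture, whereas its ratio was 3.05 after sorting for 2N and 2.60 after sorting for 4N. *Trib3*, a pseudokinase of the stress response, stood at -1.16 against 1.82 and 1.92. These were the most abundant of them.

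The other 5 had low counts. *Casp1*, the inflammatory caspase, had 41, 44 and 59 counts with vehicle and 31, 21 and 12 with CYC065 in unsorted cells (-1.09), against 1.97 and 1.74 in sorted cells. *Gbx1*, a homeobox gene, had 82 and 32 summed counts (-1.28) against 2.04 and 2.81. *Lhx1*, a LIM homeobox gene, was at -1.10 against 1.11 and 1.57. *Grhl2*, a transcription factor of epithelial cells, had 49 and 21 summed counts (-1.14) against 1.65 and 1.36, and lay within the fold without replicate 1. *Usp17la*, a deubiquitinase gene with fractional counts in a multigene family, was at -1.10 against 2.42 and 1.29.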

How the results depend on the processing

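Each condition rests on 1 library, so no result here has a check across cultures, and depth limits ratios of genes with few counts. Of 1700 higher and 1899 lower genes, the higher count went to 3312 without a filter on low counts, and all other alternatives kept both within 1.5 times. The labels do not say that replicate numbers pair the columns. Deviations of same-numbered columns correlated at -0.01, 0.00 and -0.04, which columns that differ by counting noise would give in any case. EdgeR with a replicate block called 1805 higher and 1729 lower genes, against 1804 and 1727 without the block. The assumed coefficient of variation of 0.2 left 1489 and 1401. Leaving out a replicate gave 1732 to 1769 higher and 1881 to 1895 lower genes. Since columns of a library differ by counting noise, leaving one out or fitting the columns would give similar numbers in any case. Neither can show a spread between cultures. Library size scaling shifted log2 ratios by -0.07 and gave 1567 higher and 2126 lower.

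Without a filter 10 interferon-stimulated genes and 16 collagens were higher. With whole counts only, lower members numbered 4 among histones, 4 among tubulins, 4 among actin genes and 4 among SR and CLK genes, and higher members numbered 2 among interferon-stimulated genes and 0 among guanylate-binding proteins, since fewer genes of these lists could then be counted. Each list was followed in the direction with more members past the fold, where it had at least 5, and no other such count moved by over 1.5 times. Of 999 single genes, none reversed, 11 left the fold under library size scaling and 3 to 8 on leaving out a replicate.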

Other observations

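Guanylate-binding proteins, interferon-induced GTPases that act on membranes around pathogens, had the highest median of the 43 lists (3.29), and 7 of 9 were higher with CYC065 in unsorted cells. Their copies are similar and 8 of the 9 had fractional counts, so single values are uncertain. *Gbp9* stood at 15.3 CPM with vehicle and 152 CPM with CYC065 (3.31), against 3.97 in 2N and 3.91 in 4N cells, while *Gbp2* was at -0.88 and *Gbp3* at -0.04. Other interferon-stimulated genes were less affected. Of 27 tested, 6 were higher and 1 lower, and 3 of the 6 are guanylate-binding proteins. *Ifit2* was at 0.00, with 559, 582 and 474 counts with vehicle and 505, 484 and 544 with CYC065. *Isg20*, an exonuclease, was lower (-1.34). Of 17 MHC class I presentation genes none was higher, and *Psmb10* (-1.45), an immunoproteasome subunit, and *Erap1* (-1.03), a peptide-trimming protease, were lower. Over all genes, 12.1% were higher and 13.5% lower.

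Metabolic and chaperone genes were mostly within the fold, and over all genes 12.1% were higher and 13.5% lower. Of 29 glycolysis and hypoxia genes, 4 were lower, which is near the share over all genes. They were *Ldha* (-1.43), *Tpi1* (-1.33), *Slc2a3* (-1.16) and *Eno1* (-1.04), and the peptide hormone gene *Adm* was higher (1.58). Of 14 fatty acid synthesis genes, *Acacb* (1.85), *Gpam* (31.7 and 78.0 CPM) and *Scd1* (1.27) were higher and none lower. *Hsp90aa1* (-1.50), *Hspd1* (-1.17) and *Hspa8* (-1.06) were lower among 16 heat shock chaperones, and the inducible *Hspa1a* and *Hspa1b* stood at 0.88 and 0.90 with fractional counts. Of 22 NRF2 targets, *Gsr*, glutathione reductase, was lower (-1.11) along with *Slc7a11*, and *Gsta3* was higher from 5 counts. Ribosomal protein genes lay below 0 in 82 of 83 cases but past the fold in 4 (median -0.45). All 13 mitochondrial transcripts lay above 0 (median 0.64), with *mt-Co2* (1.61) and *mt-Co1* (1.03) past the fold, the latter not under library size scaling. None of 76 nuclear respiratory chain genes passed it. Of 8 lung lineage genes, *Hopx* (2.61), *Ager* (3.62), *Foxj1* (3.04) and *Trp63* were higher and *Aqp5* (-1.65) lower, all at low levels. *Trp63* had no count with vehicle and 21, 20 and 13 with CYC065. Zinc finger genes of the Zfp series were higher in 21 and lower in 16 of 334.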
